A study of Homo sapiens with 12 samples.

Results

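Chromosome segregation rests on a set of proteins that act for a short part of the cell cycle. Kinetochores attach each chromosome to spindle microtubules, the spindle checkpoint holds back anaphase until all chromosomes are attached, and the midzone and its contractile ring then divide the cell. Many of these genes are transcribed mainly in the G2 phase and in mitosis, and their messenger RNA is widely used as a readout of cells in those phases. Filanesib inhibits the kinesin spindle protein encoded by KIF11, a motor that pushes the spindle poles apart, so the genes described here act in the process that the drug targets.

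A list of 60 genes of kinetochores, the spindle checkpoint, centrosomes and cytokinesis was followed across 12 Affymetrix arrays of MM.1S cells, a human line established from multiple myeloma. Genes were taken up by symbol wherever the platform annotation named a row of the deposited table for them. This gave 43 of the 60 genes, among 14884 genes with a named row in all. The other 17 were not analysed here. They are CENPE, CENPF, NUF2, SPC24, SPC25, ZWILCH, DSN1 and MIS12 of the outer kinetochore, UBE2C, TPX2, ASPM, DLGAP5, FAM83D, ANLN, NCAPG, NCAPH and NCAPD2. Outer kinetochore genes were therefore covered by 6 of 14, whereas all 5 checkpoint genes and all 6 genes of the centromere and inner kinetochore had a row.

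The arrays form 4 groups of 3, each exposed for 24 h. FPD cells received 1 nM filanesib, 500 nM pomalidomide and 10 nM dexamethasone. F cells received 1 nM filanesib, and by their treatment label also 10 nM dexamethasone, although their title and the shared protocol name only F. Pomalidomide, which redirects the cereblon ubiquitin ligase, was given to PD cells at 500 nM with 10 nM dexamethasone, a synthetic glucocorticoid. Control cells received vehicle. All groups are 1 cell line. Separate cultures are not named in the labels, and a p-value here measures only a spread between arrays that may be technical.

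Array medians ran from 4.23 to 4.27 on the log2 scale, and no 2 arrays held identical values. Arrays within a group correlated at 0.988 to 0.992 and arrays of different groups at 0.979 to 0.992, so these ranges overlapped. The myeloma identity of the line was visible in its plasma cell markers, whose mean level was 8.96 to 9.34 across the arrays, while markers of myeloid cells averaged 4.20 to 4.40 (CD14, LYZ and CD163 among the lowest). Of the 7 measured plasma cell markers 6 lay above the median of all genes, and FCRL5 did not. Among markers of other cells, 1 of 4 for B cells, 3 of 5 for T cells, 2 of 8 for myeloid cells and 2 of 8 for stromal and epithelial cells did so, the T cell ones being CD28, TRAT1 and CD8A. Glucocorticoid-induced FKBP5 had a log2 difference of 0.18 between F and Control (limma, adjusted p = 0.902) and of 1.49 between PD and Control (limma, adjusted p = 8.14e-07). KIF11 itself lay at 10.39, 10.42 and 10.62 in F arrays and at 10.20, 10.25 and 10.18 in Control arrays (log2 difference 0.27, limma adjusted p = 0.702).

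G2 and mitosis genes are known to share a short promoter element, so regulatory sequence is shown for a few of the genes described here. That element, the cell cycle genes homology region, reads TTTGAA or TTTAAA and recruits the DREAM and MuvB complexes. RefSeq promoters of build GRCh38.p14, 250 bases before to 50 bases after the start, were found for 35 of the 43 genes, and where a gene had several starts the one listed first was used. BUB3, TTK, CENPH, CENPM, KNL1, BIRC5, CDCA2 and RACGAP1 had no entry. The element was present on either strand in 28 of the 35 (80.0%), against 24.3% of 27305 promoters of this length and 18.7% of the 10749 promoters of tested genes. Of the genes called higher in the filanesib average described further on, 7 of 9 held it (77.8%), and of those not called there 21 of 26 did (80.8%). A CCAAT box, the NF-Y binding motif, was found in 26 (74.3%), against 35.7% of all promoters. TTTAAA reads the same on both strands, and matches of different motifs were allowed to overlap. A match is a stretch of letters, not a measured binding site.

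The 4 promoters below belong to the genes with the highest average difference with filanesib among those holding the element in the 150 bases before the start, which are printed 5′ to 3′ on the gene's strand with the element in capitals.
HMMR: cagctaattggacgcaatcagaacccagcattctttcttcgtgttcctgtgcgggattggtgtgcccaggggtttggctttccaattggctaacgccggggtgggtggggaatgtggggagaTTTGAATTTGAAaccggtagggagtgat
DEPDC1: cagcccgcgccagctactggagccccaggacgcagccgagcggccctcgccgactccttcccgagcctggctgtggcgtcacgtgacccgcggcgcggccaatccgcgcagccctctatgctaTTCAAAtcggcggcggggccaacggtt
CEP55: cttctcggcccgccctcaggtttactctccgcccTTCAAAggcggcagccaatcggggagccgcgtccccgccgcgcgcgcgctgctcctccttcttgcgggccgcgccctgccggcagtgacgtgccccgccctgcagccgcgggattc
PRC1: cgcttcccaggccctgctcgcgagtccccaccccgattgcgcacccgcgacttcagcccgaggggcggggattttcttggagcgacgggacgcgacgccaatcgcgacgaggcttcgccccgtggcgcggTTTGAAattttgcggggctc
These stretches are chr5:163460482-163460631 (plus strand), chr1:68497083-68497232 (minus), chr10:93496462-93496611 (plus) and chr15:90994536-90994685 (minus). In HMMR a pair of TTTGAA copies stands back to back at positions -28 to -17 from the start. The element lies at -27 to -22 in DEPDC1, where it reads on the other strand, and at -20 to -15 in PRC1. In CEP55 it lies further out, at -116 to -111, also on the other strand.

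With filanesib nearly all of these genes had higher group means than without it, by amounts that are small for each gene. In FPD against PD, a comparison in which filanesib is the only labelled difference, all 43 genes had a positive log2 difference (median 0.33, range 0.03 to 0.52), where the median over all 14884 genes was 0.006 and 51.8% were positive. In F against Control 41 of 43 were positive (median 0.23, range -0.11 to 0.60), where the median of all genes was -0.005 and 48.3% were positive. The comparisons share no array, and 41 genes were positive in both, as were 26.4% of all genes. The 43 genes were chosen with earlier results of these data known, so these counts are not an independent test of the set. In arrays of bulk RNA, a larger share of cells in G2 and mitosis and more transcript per cell cannot be told apart.

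**Figure D1:**
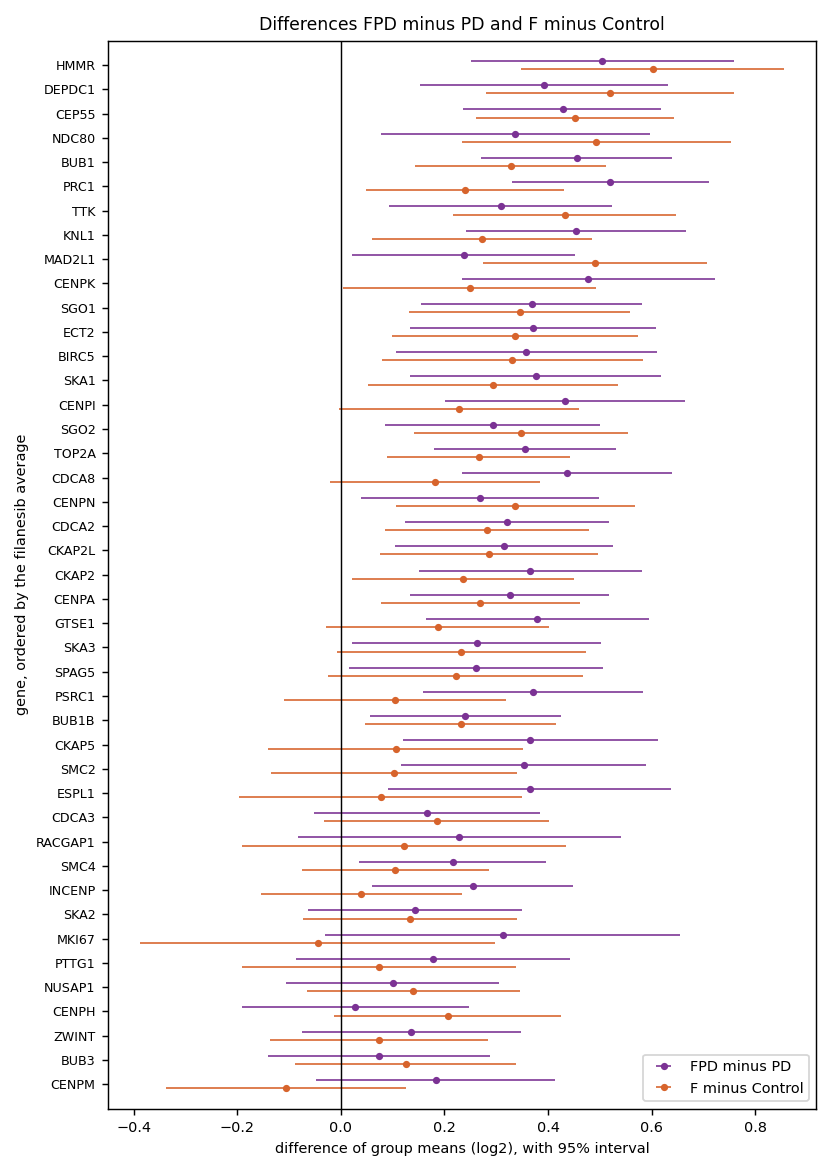
Log2 difference of group means with its 95% interval for the 43 genes, FPD minus PD and F minus Control, with genes ordered by the average of both differences. All 43 FPD minus PD points and 41 of the F minus Control points lie to the right of 0.

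No single gene passed the test over all genes in either comparison (limma, adjusted p under 0.05: 0 of 43 in F against Control, where 0.00672% of all genes were called higher and 0% lower, and 0 of 43 in FPD against PD, where 0.0336% were called higher and 0% lower). At an unadjusted p under 0.05, 22 of the 43 were higher in F (3.12% of all genes) and 33 were higher in FPD (5.01% of all genes). None was lower in either, against 2.89% and 3.61% of all genes. The 3 F arrays lay above all 3 Control arrays in 22 genes (4.84% of all genes), and the 3 FPD arrays lay above all 3 PD arrays in 35 (8.10% of all genes). The reverse held for none, against 5.15% and 6.35% of all genes. PRC1, the protein that bundles midzone microtubules, came closest in FPD against PD (log2 difference 0.52, 95% interval 0.33 to 0.71, limma adjusted p = 0.0566). Its values were 9.03, 9.08 and 9.19 in FPD and 8.67, 8.59 and 8.47 in PD. The arrays did not overlap, and those of F, at 8.79, 8.74 and 8.87, lay between them. The call passed without PD replicate 1 (limma adjusted p = 0.0446), among genes above the median mean (0.0321), with an intensity trend (0.0176) and over all rows (0.0355).

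HMMR (0.51, limma adjusted p = 0.162) and CENPK (0.48, adjusted p = 0.173) came next in FPD against PD, and CENPH (0.03), BUB3 (0.07) and NUSAP1 (0.10) stood lowest. In F against Control the highest were HMMR (0.60, adjusted p = 0.198), DEPDC1 (0.52, adjusted p = 0.292) and NDC80 (0.49, adjusted p = 0.539), and the lowest were CENPM (-0.11), MKI67 (-0.04) and INCENP (0.04).

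Averaging both differences uses the 6 arrays with filanesib against the 6 without, so that a gene's 95% interval reached a median of 0.15 to either side of its value, against 0.22 in a single comparison. All 43 genes were positive in this average (median 0.30, range 0.04 to 0.55), 49.3% of all genes were, and the unadjusted p was under 0.05 in 34 (4.85% of all genes), with none lower (3.72%). In 21 of the genes the F arrays all lay above the Control arrays and the FPD arrays all above the PD arrays (0.941% of all genes). The reverse in both comparisons held for none (0.464%). FPD was not set against Control, nor F against PD, in this count. Over all genes 11 of the 43 were called higher and none lower (limma, adjusted p under 0.05), where 0.383% of all genes were called higher and 0.0470% lower. They are HMMR, DEPDC1, CEP55, NDC80, BUB1, PRC1, TTK, MAD2L1, KNL1, SGO1 and TOP2A, so the calls reach from the checkpoint and outer kinetochore to the midbody. Since F carries dexamethasone by its treatment label and Control does not, the average is free of that doubt only in the part that comes from FPD against PD. Only HMMR, CEP55 and BUB1 kept the call under each of the 18 alternatives. The count fell to 3 without Control replicate 1, to 4 without F replicate 2, PD replicate 2, PD replicate 3 or FPD replicate 3, to 5 without F replicate 3 or FPD replicate 2, to 6 without FPD replicate 1, and to 7 without Control replicate 3 or PD replicate 1. It was 21 of 41 among genes above the median mean. The share of all genes called under that setting was not computed, so this count has no baseline beside it.

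The hyaluronan-mediated motility receptor HMMR, a spindle pole protein, had the highest average. Its log2 values were 9.31, 9.52 and 9.40 in the FPD arrays, 9.21, 9.55 and 9.55 in the F arrays, 8.90, 8.97 and 8.85 in the PD arrays and 8.82, 9.06 and 8.63 in the Control arrays. Every array with filanesib lay above every array without it, and F replicate 1 was the lowest of those with filanesib. The average difference was 0.55 (95% interval 0.37 to 0.73, fold 1.47, limma adjusted p = 0.00918). CEP55, which builds the midbody and recruits the abscission machinery, stood at 9.01, 8.95 and 9.08 in the FPD arrays, 8.78, 8.84 and 9.02 in the F arrays, 8.55, 8.55 and 8.65 in the PD arrays and 8.48, 8.42 and 8.38 in the Control arrays. Again the groups with and without filanesib did not overlap, and the PD arrays sat between Control and F. The average difference of CEP55 was 0.44 (interval 0.30 to 0.57, fold 1.36, limma adjusted p = 0.00638).

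**Figure D2:**
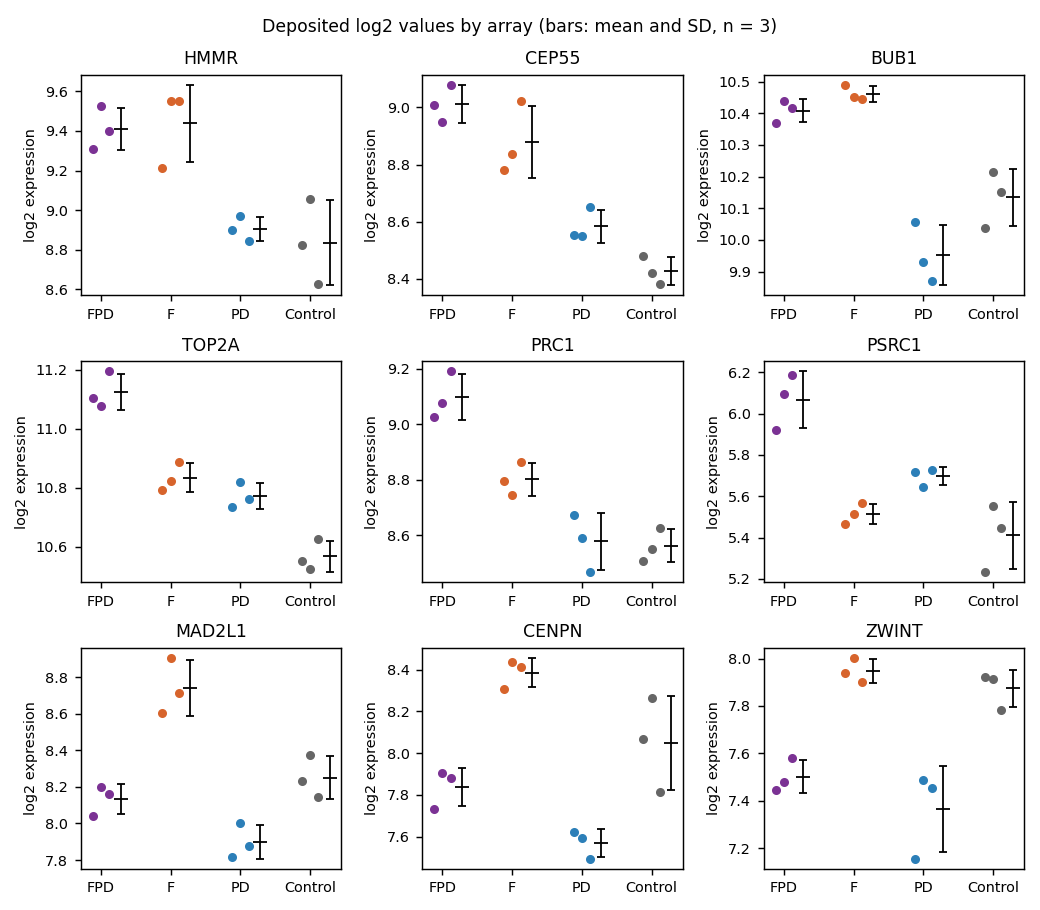
Log2 expression of 9 genes in each array by group (FPD, F, PD, Control), with the group mean and SD (n = 3) as bars. In HMMR, CEP55 and BUB1 every array with filanesib lies above every array without it, whereas MAD2L1, CENPN and ZWINT are lower in FPD than in F.

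Among the 5 spindle checkpoint genes, BUB1, TTK and MAD2L1 were called higher in the filanesib average. BUB1, a kinase that marks centromeres and recruits checkpoint proteins, had values of 10.37, 10.44 and 10.42 in the FPD arrays, 10.49, 10.45 and 10.45 in the F arrays, 10.06, 9.93 and 9.87 in the PD arrays and 10.04, 10.21 and 10.15 in the Control arrays. Its arrays within a group lay close together, and the FPD and F arrays all exceeded the highest Control array (average difference 0.39, interval 0.26 to 0.52, limma adjusted p = 0.0104). TTK, the MPS1 kinase that starts checkpoint signalling, reached 8.63, 8.91 and 8.72 in FPD and 8.58, 8.79 and 8.87 in F, against 8.45, 8.44 and 8.45 in PD and 8.31, 8.41 and 8.22 in Control (average 0.37, limma adjusted p = 0.0307). BUB1B, which encodes the checkpoint inhibitor BUBR1, had an average of 0.24 (interval 0.10 to 0.37, limma adjusted p = 0.154). BUB3, the shared partner of BUB1 and BUBR1, had the lowest of the role at 0.10 (interval -0.05 to 0.25), with 9.78, 9.77 and 9.80 in FPD and 9.87, 10.08 and 10.10 in F, against 9.73, 9.73 and 9.66 in PD and 9.87, 10.07 and 9.72 in Control. TTK lost its call without any array but Control replicate 2, F replicate 1 or FPD replicate 1 (adjusted p up to 0.0998), and MAD2L1 without any but Control replicate 2 or F replicate 1 (up to 0.111).

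In the centromere and inner kinetochore, none of 6 genes was called in the filanesib average, and all 6 were positive. CENPK, a subunit of the constitutive centromere network, was the highest there (0.36, interval 0.19 to 0.54, limma adjusted p = 0.0747, and 0.0315 among genes above the median mean). It lay at 7.17, 7.22 and 7.10 in FPD against 6.68, 6.50 and 6.87 in PD, and the arrays of these groups did not overlap. CENPM of the same network was the lowest of all 43 (0.04, interval -0.13 to 0.20), and its value turned to -0.001 when the arrays were quantile normalized again. CENPA, the histone H3 variant that marks the centromere, averaged 8.01 ± 0.04 in FPD and 7.68 ± 0.08 in PD (n = 3 each).

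Of the 6 measured outer kinetochore genes, NDC80 and KNL1 were called higher in the average. NDC80, the microtubule-binding subunit that gives its complex its name, had values of 8.49, 8.62 and 8.79 in FPD and 8.54, 8.60 and 8.94 in F, against 8.28, 8.47 and 8.14 in PD and 8.20, 8.30 and 8.11 in Control. FPD and F overlapped, and both lay above the arrays without filanesib (average 0.41, interval 0.23 to 0.60, limma adjusted p = 0.0488). This call was lost without 11 of the 12 arrays in turn, F replicate 1 being the exception (adjusted p up to 0.141). KNL1 lost its call without any array but Control replicate 3, PD replicate 1 or FPD replicate 2 (up to 0.0999). ZWINT, which links the KNL1 scaffold to checkpoint proteins, had the lowest average of the role (0.10, interval -0.04 to 0.25).

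At anaphase onset SGO1, which protects centromeric cohesion, was called higher in the average. It lay at 8.82, 8.86 and 8.77 in FPD and 8.80, 8.89 and 8.87 in F, against 8.48, 8.33 and 8.53 in PD and 8.41, 8.72 and 8.39 in Control, where replicate 2 came nearest to the arrays with filanesib (average 0.36, limma adjusted p = 0.0367). Its paralogue SGO2 was close (0.32, limma adjusted p = 0.0554), and separase, ESPL1, had 0.22. The securin gene PTTG1 was the lowest of the role (0.13), its arrays spanning 4.77 to 5.52, with F inside the range of the other groups. Of the 5 passenger complex and CDCA genes none was called, with BIRC5 (survivin) the highest at 0.34 (limma adjusted p = 0.117). Without F replicate 1 BIRC5 was called (0.40, limma adjusted p = 0.0429). BIRC5 had 8.64, 8.83 and 8.75 in FPD and 8.52, 8.79 and 8.95 in F, against 8.16, 8.49 and 8.50 in PD and 8.50, 8.39 and 8.39 in Control. INCENP, the scaffold of the complex, was the lowest at 0.15, with 8.61, 8.57 and 8.77 in FPD and 8.42, 8.35 and 8.42 in PD, and F at 8.72, 8.49 and 8.56 overlapping Control at 8.56, 8.51 and 8.59. In the spindle and centrosome role, HMMR and DEPDC1 were called and NUSAP1, which bundles spindle microtubules, was lowest (0.12), with 10.76, 10.73 and 10.71 in FPD and 10.46, 10.66 and 10.72 in F, against 10.54, 10.57 and 10.79 in PD and 10.49, 10.49 and 10.43 in Control. PD replicate 3 was the highest NUSAP1 array of all. DEPDC1 lay at 7.71, 7.88 and 7.69 in FPD and 7.83, 8.06 and 7.82 in F, against 7.58, 7.30 and 7.23 in PD and 7.40, 7.50 and 7.24 in Control (average 0.46, limma adjusted p = 0.0201). DEPDC1 had 2 rows, and as their mean its average difference was 0.26 (limma adjusted p = 0.101). SGO1 lost its call without any array but Control replicate 2 (adjusted p up to 0.121), and DEPDC1 lost it without Control replicate 1, F replicate 2, PD replicate 2 or 3 or FPD replicate 2 (0.0523 to 0.0736).

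In the midzone and cytokinesis role CEP55 and PRC1 were called in the average. RACGAP1, a subunit of the centralspindlin complex, was the lowest (0.17), at values of 3.24 to 4.07 that lie under the array medians and were not shown to be above background. Leaving out Control replicate 1 or FPD replicate 3 ended the call of PRC1 (limma adjusted p = 0.0504 and 0.0528). Of the 4 measured condensin and mitotic chromosome genes TOP2A, the topoisomerase that untangles sister chromatids, was called (0.31, limma adjusted p = 0.0294). MKI67, the Ki-67 proliferation antigen, had the lowest average of the role (0.13). Control replicate 3 stood apart in MKI67 at 11.21, against 10.65 and 10.48 in the other Control arrays, and without it the F against Control difference was 0.17 in place of -0.04. TOP2A lost its call without 10 of the 12 arrays, Control replicate 3 and F replicate 1 being the exceptions (adjusted p up to 0.0933).

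**Figure D3:**
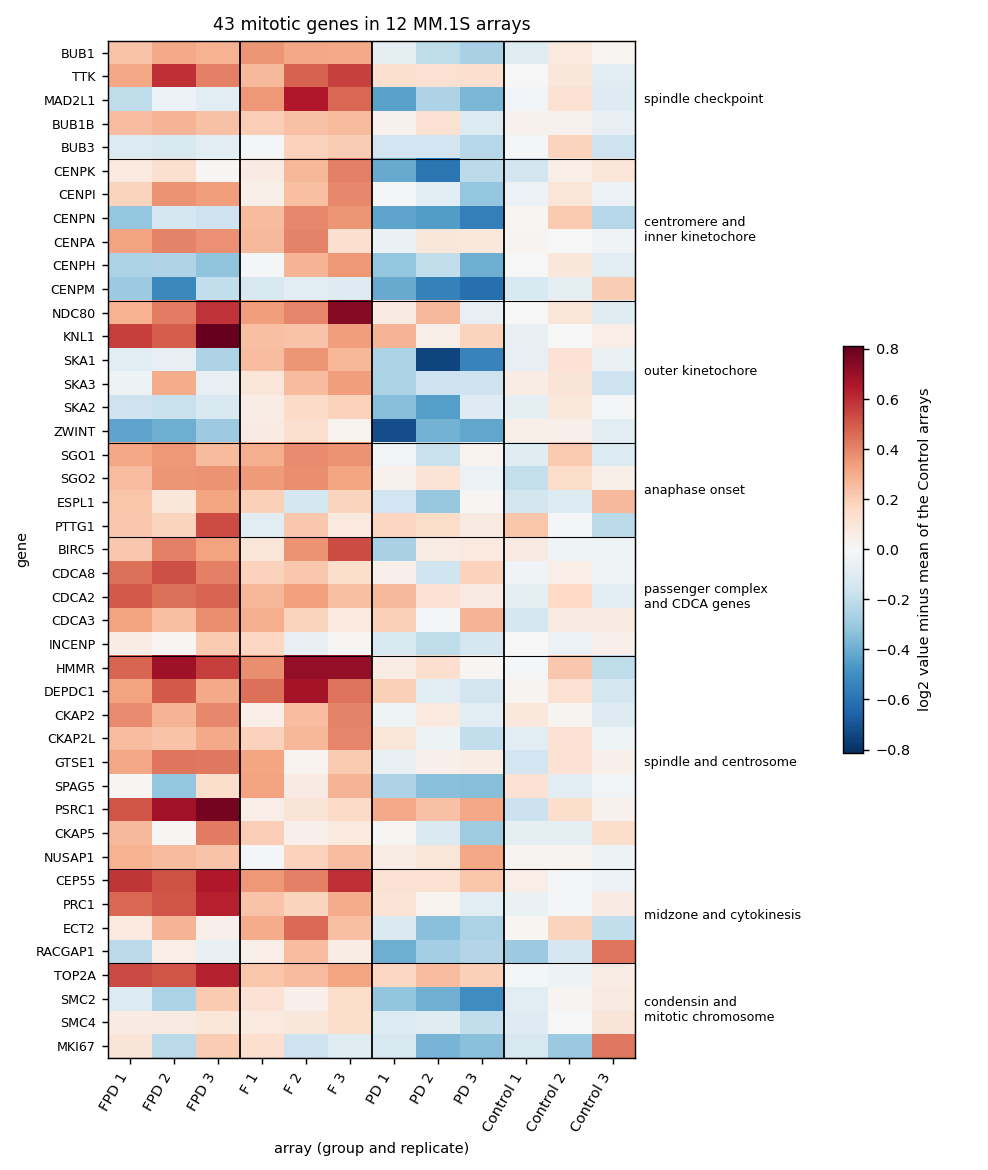
Log2 value of each of the 43 genes minus the mean of its 3 Control arrays, with arrays as columns (FPD, F, PD, Control) and genes as rows grouped by role. The FPD and F columns are mostly red, and in PD the centromere and outer kinetochore rows hold the darkest blue cells.

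In PD the genes that passed the test were all lower than in Control, and most belong to the kinetochore. In PD against Control 8 of the 43 genes fell and none rose (limma, adjusted p under 0.05), where 8.63% of all genes were called lower and 6.84% higher. The median of the 43 was -0.06, with 26 negative and 17 positive (49.4% of all genes were positive). The 8 are CENPM, SKA1, ZWINT, CENPN, CENPK, SMC2, MAD2L1 and SKA2, of which 3 belong to the inner and 3 to the outer kinetochore. None of the 9 spindle and centrosome genes, the 4 midzone and cytokinesis genes, the 5 passenger complex and CDCA genes or the 4 anaphase genes was called. With so few genes in each role, an absence of calls says little. SPAG5 of the spindle and centrosome role (-0.31) and RACGAP1 of the midzone role (-0.30, at low values) differed by as much as SKA2 (-0.30) without being called. CENPM, SKA1, ZWINT and CENPN kept their call under all 13 alternatives. The count was 4 without Control replicate 2, and 5 without Control replicate 3 or PD replicate 1.

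CENPM had values of 7.65, 7.51 and 7.45 in PD and 7.93, 7.98 and 8.27 in Control. The groups did not overlap, and the highest Control array was replicate 3. The log2 difference was -0.52 (interval -0.76 to -0.29, 1.44-fold lower, limma adjusted p = 0.00326). SKA1, a subunit of the complex that couples kinetochores to shrinking microtubules, lay at 8.88, 8.39 and 8.59 in PD and 9.07, 9.25 and 9.08 in Control. PD replicate 2 was the lowest array and PD replicate 1 came nearest to Control (difference -0.51, limma adjusted p = 0.00526). ZWINT had 7.16, 7.49 and 7.45 in PD and 7.92, 7.91 and 7.79 in Control, with PD replicate 1 below the other PD arrays (difference -0.51, 1.42-fold lower, limma adjusted p = 0.002). The arrays of the groups did not overlap in ZWINT or SKA1.

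CENPN, which reads the CENPA nucleosome, fell by 0.48 on the log2 scale (limma adjusted p = 0.00591), and CENPK fell by 0.41 (adjusted p = 0.024). SMC2, a core subunit of condensin, fell by 0.40 (adjusted p = 0.0204), MAD2L1 by 0.35 (adjusted p = 0.0263) and SKA2 by 0.30 (adjusted p = 0.0492). Apart from that of CENPN, these calls depended on single arrays. That of CENPK was lost without Control replicate 2 or 3 or PD replicate 1 or 2 (adjusted p 0.0596 to 0.119), that of SMC2 without Control replicate 2 or 3 or PD replicate 3 (0.0620 to 0.0817), that of MAD2L1 without Control replicate 1 or 2 or PD replicate 1 or 3 (0.0544 to 0.117), and that of SKA2 without any array but PD replicate 3 (0.0585 to 0.199). At the other end PSRC1, a spindle protein that helps chromosomes congress, had 0.29 (limma adjusted p = 0.0689), TOP2A 0.20 (adjusted p = 0.119) and KNL1 0.17 (adjusted p = 0.321). PSRC1 passed without Control replicate 2 (limma adjusted p = 0.0438) and among genes above the median mean (0.0345), and TOP2A with an intensity trend (0.0387).

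The comparison of FPD with F is made among cells that hold filanesib, with arrays that do not enter PD against Control. By the treatment labels only pomalidomide differs there, while PD against Control adds dexamethasone too. If F cells held filanesib alone, as their title and the shared protocol read, FPD against F differs in both agents as well. Which reading holds was not tested, so a difference there is not assigned to pomalidomide alone. FKBP5 lay at 7.28, 7.20 and 7.26 in FPD and 6.09, 5.56 and 5.58 in F (log2 difference 1.505, limma adjusted p = 7.47e-07), beside the 1.49 of PD minus Control given above. In FPD 5 of the 43 genes fell and 4 rose against F (limma, adjusted p under 0.05), where 6.64% of all genes were called lower and 7.50% higher, and the median of the 43 was -0.02. The count that rose is near the share of all genes, and the count that fell is not far above it. These calls therefore describe single genes rather than the set. MAD2L1, CENPN, CENPH, ZWINT and SKA1 fell, and PSRC1, KNL1, PRC1 and TOP2A rose. CENPN, ZWINT, SKA1 and MAD2L1 thus fell in both comparisons. Across the 43 genes the differences correlated at r = 0.82, and across all genes at 0.78, as a description over genes that are not independent replicates. A negative difference in both was found in 20 of the 43 genes and in 34.9% of all genes.

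**Figure D4:**
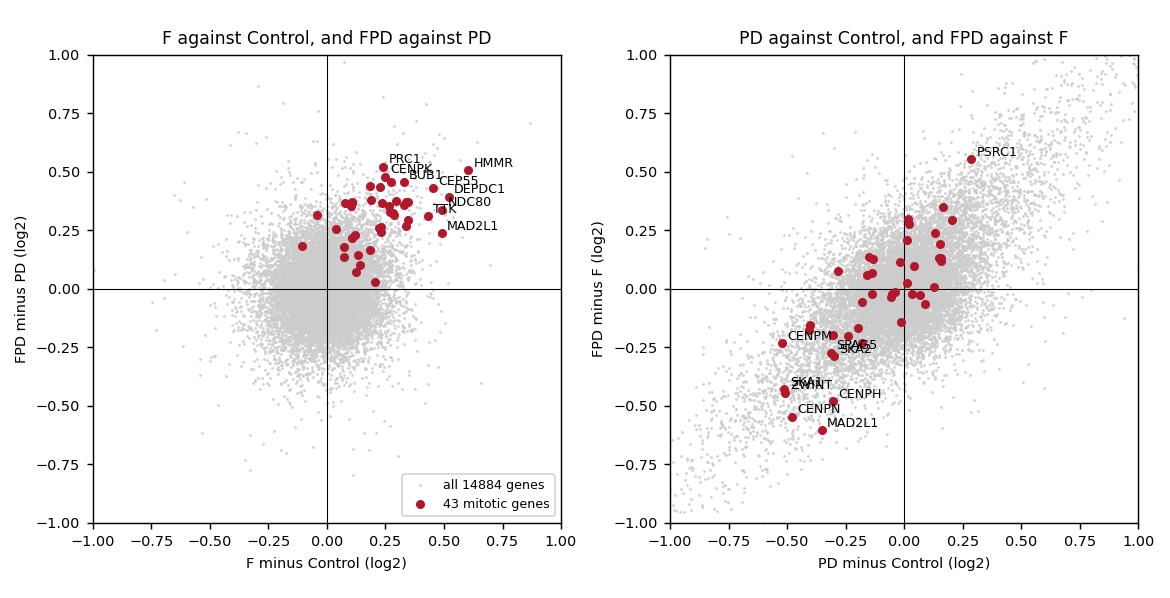
Log2 differences of all 14884 genes (grey) and the 43 genes (red) in comparisons that share no array, F minus Control against FPD minus PD on the left and PD minus Control against FPD minus F on the right. Axes end at -1 and 1, so genes beyond are not drawn, and on the left 41 of the red points lie where both differences are above 0.

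MAD2L1, whose protein forms the diffusible checkpoint signal, was called in the filanesib average, in PD against Control and in FPD against F. Its values were 8.04, 8.20 and 8.16 in the FPD arrays, 8.60, 8.90 and 8.71 in the F arrays, 7.82, 8.0 and 7.88 in the PD arrays and 8.23, 8.38 and 8.15 in the Control arrays. F arrays were the highest, PD arrays the lowest, and FPD arrays overlapped with the Control arrays. Against F it fell in FPD by 0.61 on the log2 scale (interval -0.82 to -0.39, 1.52-fold lower, limma adjusted p = 0.000661), while FPD against Control gave -0.12 (interval -0.33 to 0.10, limma adjusted p = 0.564). CENPN followed the same order, with values of 7.73, 7.90 and 7.88 in the FPD arrays, 8.31, 8.44 and 8.41 in the F arrays, 7.62, 7.59 and 7.49 in the PD arrays and 8.07, 8.27 and 7.82 in the Control arrays. No FPD array reached the lowest F array (difference -0.55, interval -0.78 to -0.32, limma adjusted p = 0.00248).

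CENPH, another subunit of the constitutive centromere network, lay at 6.77, 6.78 and 6.70 in FPD and at 7.02, 7.30 and 7.38 in F (difference -0.48, limma adjusted p = 0.00444). In FPD against PD it had the smallest difference of the 43, 0.03 (interval -0.19 to 0.25), which turned to -0.02 without PD replicate 3 and to -0.03 with the arrays quantile normalized again. ZWINT fell by 0.45 on the log2 scale in FPD against F (limma adjusted p = 0.00596) and SKA1 by 0.43 (adjusted p = 0.0177). The SKA1 call was lost without F replicate 2 (0.0734) or FPD replicate 3 (0.0831).

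PSRC1 went the other way, at 5.92, 6.09 and 6.19 in the FPD arrays, 5.47, 5.51 and 5.57 in the F arrays, 5.72, 5.65 and 5.72 in the PD arrays and 5.23, 5.55 and 5.45 in the Control arrays. The FPD arrays stood above every other array, and F and Control overlapped. It rose by 0.55 in FPD against F (interval 0.34 to 0.77, fold 1.47, limma adjusted p = 0.00126), a call kept under all 13 alternatives. KNL1, the scaffold that collects checkpoint proteins at the kinetochore, rose by 0.35 (adjusted p = 0.0271), PRC1 by 0.30 (adjusted p = 0.0363) and TOP2A by 0.29 (adjusted p = 0.0255). The number of genes called higher was 1 without F replicate 1, F replicate 2 or FPD replicate 3, and 2 without FPD replicate 1. PRC1 lost its call without any of the 6 arrays (0.0532 to 0.149), KNL1 without F replicate 1 or 2 or FPD replicate 3 (0.0690 to 0.147), and TOP2A without these or FPD replicate 1 (0.0626 to 0.106).

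With all agents together, FPD against Control, 16 of the 43 genes rose and 1 fell (limma, adjusted p under 0.05), where 7.26% of all genes were called higher and 5.89% lower. The median of the 43 was 0.27, against -0.02 for all genes, and 32 of the 43 were positive, as were 46.4% of all genes. These groups also enter the comparisons above, so the counts are not independent of them. PSRC1 (0.66, fold 1.58), KNL1 (0.62, fold 1.54), CEP55 (0.58), HMMR (0.57) and TOP2A (0.56) rose most, with limma adjusted p of 0.000236 for TOP2A to 0.0039 for HMMR. PRC1, CDCA2, CDCA8, TTK, NDC80, GTSE1, DEPDC1, CENPA, CKAP2, SGO2 and BUB1 made up the rest. ZWINT was the gene that fell (-0.37, adjusted p = 0.0196), which missed the threshold once Control replicate 1 or 2 or FPD replicate 1 or 2 was left out (0.0630 to 0.0769). Without FPD replicate 2 or FPD replicate 3 the count of genes that rose was 10. BUB1 lost its call without any of the 6 arrays (adjusted p up to 0.185), and DEPDC1 and SGO2 without any but Control replicate 2 (up to 0.145 and 0.183). As the mean of its 2 rows DEPDC1 had 0.25 and was not called (limma adjusted p = 0.0821). NDC80 lost it without Control replicate 1 or 3 or FPD replicate 2 or 3, CKAP2 without Control replicate 2 or 3 or FPD replicate 1 or 3, GTSE1 without Control replicate 1 or FPD replicate 2 or 3, and TTK without FPD replicate 2 (0.0502 to 0.133).

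TOP2A and KNL1 were highest with all agents. TOP2A had 11.11, 11.08 and 11.20 in the FPD arrays, 10.79, 10.82 and 10.89 in the F arrays, 10.73, 10.82 and 10.76 in the PD arrays and 10.55, 10.52 and 10.63 in the Control arrays, so that PD and F each lay above Control without overlap and FPD above both. For KNL1 the values were 8.91, 8.84 and 9.16 in the FPD arrays, 8.59, 8.58 and 8.69 in the F arrays, 8.62, 8.40 and 8.53 in the PD arrays and 8.29, 8.35 and 8.40 in the Control arrays. FPD exceeded each of the other groups there too, while PD overlapped with F and its lowest array was level with the highest Control array. Other genes differed little between FPD and F. HMMR differed between FPD and F by -0.03 (interval -0.28 to 0.23), NDC80 by -0.06 (interval -0.32 to 0.20), TTK by 0.01 (interval -0.21 to 0.22) and BUB1 by -0.06 (interval -0.24 to 0.13), none of them called.

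Whether filanesib acted differently with pomalidomide and dexamethasone present was tested as the departure from additivity, FPD minus PD less F minus Control. No gene of the 43 was called (limma, adjusted p under 0.05), nor any of the 14884 genes (0% higher and 0% lower), and 1 of the 43 had an unadjusted p under 0.05 in the positive direction, against 3.20% of all genes, with none in the negative direction (2.40%). That gene was PRC1 (0.28, interval 0.01 to 0.55, unadjusted p = 0.0418, limma adjusted p = 0.888). The median departure was 0.06, and 0.01 over all genes, and 31 of the 43 were positive, as were 52.6% of all genes. A gene's 95% interval reached a median of 0.31 to either side of its value, about as large as the median filanesib average, and the interval included 0 in 42 of the 43 genes.

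Across the 12 arrays the mean over the 43 genes set the arrays with filanesib apart from those without, but not FPD from F. The mean over the genes, taken as differences from Control, was 0.17, 0.20 and 0.25 in FPD arrays, 0.18, 0.25 and 0.28 in F arrays and -0.08, -0.12 and -0.12 in PD arrays. The Control arrays themselves lay at -0.04, 0.05 and -0.01. FPD and F overlapped, and both lay above all PD and Control arrays. By group mean, F was the highest group in 22 genes, FPD in 20 and Control in 1, CENPM. PD was the lowest in 26 genes and Control in 17. Over all the comparisons 17 of the 43 were never called, namely BIRC5, BUB1B, BUB3, CDCA3, CENPI, CKAP2L, CKAP5, ECT2, ESPL1, INCENP, MKI67, NUSAP1, PTTG1, RACGAP1, SKA3, SMC4 and SPAG5. For the counts by group mean and for the genes never called, the share of all genes was not computed. They describe single genes and have no baseline beside them. Spread within a group was small, with a median SD per gene of 0.08 in FPD, 0.11 in F, 0.10 in PD and 0.11 in Control (n = 3 each).

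Other mitotic genes also had mostly positive filanesib averages. Their lists were drawn up with earlier results of these data known, so they are not an independent test. Of all genes 0.383% were called higher in that average and 0.0470% lower. Of 13 other mitotic kinesins 7 rose and none fell (median 0.30), with KIF18A highest (0.49, limma adjusted p = 0.00265), KIF2A lowest (0.08) and KIF11 at 0.28 (adjusted p = 0.132). Of 21 mitotic cyclins and kinases 6 rose and none fell (median 0.28), among them NEK2 (0.52, adjusted p = 0.00265) and CCNB1 (0.51, adjusted p = 0.0104), while CDK1 had 0.34 (adjusted p = 0.15). Of 21 other kinetochore and centromere genes 2 rose, SPDL1 (0.43), which brings dynein to kinetochores, and KNSTRN (0.39), and of 15 other centrosome and spindle assembly genes 2 rose, CEP152 (0.40) and SASS6 (0.38), both of centriole duplication. None of 10 cohesin genes (the 3 condensin II genes of that list were not analysed here), 5 other cytokinesis genes, 22 DNA replication genes or 12 regulators of mitotic transcription was called. At an unadjusted p under 0.05 these lists had 3, 1, 2 and 3 genes higher (4.85% of all genes), and the replication genes had 3 lower (3.72% of all genes). Their extremes were ESCO2 (0.19) and SMC3 (-0.01), SHCBP1 (0.29) and TSG101 (-0.07), GINS1 (0.21) and UNG (-0.20), and FOXM1 and RBL2 (-0.02). The lowest of the lists with calls were FZR1 (0.01), NUMA1 (-0.07) and MAD2L1BP (-0.03).

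The replication genes had a median filanesib average of -0.03 and the lowest median of the lists in PD against Control, with 20 of 22 lower in PD against Control (median -0.65) and 17 of 22 lower in FPD against F (median -0.40). Of all genes 8.63% were called lower and 6.84% higher in PD against Control, and 6.64% and 7.50% in FPD against F. The other kinetochore and centromere genes had 6 of 21 lower in PD against Control (median -0.20) and 4 of 21 in FPD against F (median -0.10), and none higher. Among the transcription regulators, FOXM1, a forkhead factor that drives G2 and mitosis genes, had a filanesib average of 0.29 (adjusted p = 0.0509). MYBL2, the B-MYB subunit that joins MuvB to switch on mitotic genes, had 0.12 (adjusted p = 0.675). In PD MYBL2 fell by 0.48 on the log2 scale, with 10.62, 10.26 and 10.43 in PD and 10.96, 10.97 and 10.82 in Control (limma adjusted p = 0.00353), and in FPD it fell by 0.44 against F (adjusted p = 0.00702).

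**Figure D5:**
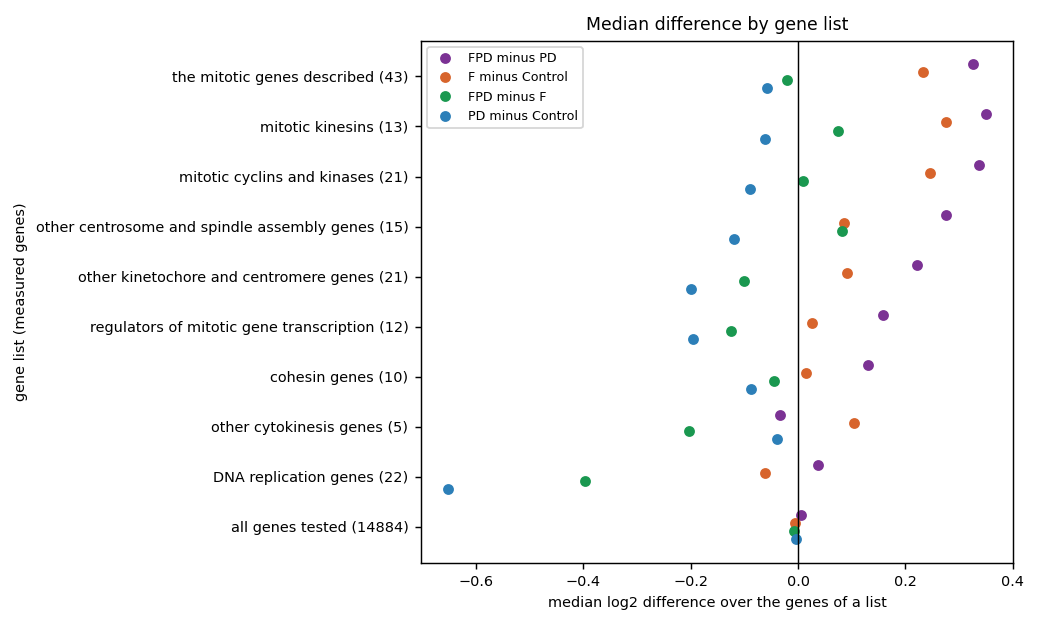
Median log2 difference over the measured genes of each list, for FPD minus PD, F minus Control, FPD minus F and PD minus Control. The 43 genes, the kinesins and the cyclins and kinases lie to the right in FPD minus PD and F minus Control. The DNA replication genes lie to the left in PD minus Control and FPD minus F.

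DNA replication genes, the list with the lowest median in PD against Control, are known targets of E2F factors, so the promoters were also searched for an E2F motif. Whether E2F factors had a part in the differences was not tested. A core of the E2F motif, GCGGGAA, chosen after the values were seen, was present in 5 of the 35 promoters (14.3%), against 6.56% of all promoters and 8.83% of those of tested genes. Of the 7 genes called lower in PD against Control or FPD against F that had a promoter entry, 2 held it, CENPN and SKA1, and of the other 28 it was found in 3. TTTGAA or TTTAAA was present in 5 of these 7 (71.4%) and in 23 of the other 28 (82.1%). In the 150 bases before the start alone the element was in 1 of the 7 and 17 of the 28, and the E2F core in 2 of the 7 and 1 of the 28. In that shorter window the element was in 12.8% of all promoters and 9.35% of those of tested genes. The E2F core was in 3.64% and 4.99%. The numbers are small, and they describe letters in a window. The stretches of CENPN (chr16:81007064-81007213, plus strand) and SKA1 (chr18:50374896-50375045, plus strand) were picked because they hold the E2F core, which is printed in capitals. Lowered genes without it are not shown.
CENPN: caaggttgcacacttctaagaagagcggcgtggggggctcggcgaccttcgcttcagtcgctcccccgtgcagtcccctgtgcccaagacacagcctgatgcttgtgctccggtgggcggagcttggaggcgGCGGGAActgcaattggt
SKA1: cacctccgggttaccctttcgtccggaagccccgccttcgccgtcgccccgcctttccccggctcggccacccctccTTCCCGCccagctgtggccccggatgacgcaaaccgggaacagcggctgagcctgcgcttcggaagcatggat
The core stands at -18 to -12 in CENPN and, on the other strand, at -73 to -67 in SKA1. Neither stretch holds TTTGAA or TTTAAA, which in both genes is found elsewhere in the longer window.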

How the data were processed

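Total RNA of 12 MM.1S samples was measured on 1 Affymetrix array each. The deposited values are log2 expression values that the authors made by RMA in Affymetrix Expression Console, as the submitters' processing notes state without versions. RMA compresses differences of weakly hybridising probes. Of 53617 rows, 16098 had 1 gene symbol. Of several rows for 1 gene that with the highest mean was used, which gave 14884 genes, tested without an expression filter. Of the 60 listed genes 43 had a row. With limma 3.58.1 (R 4.3.3), 1 linear model with a mean per group covered the 12 arrays (8 residual degrees of freedom, two-sided tests, Benjamini-Hochberg adjustment over all genes, called at an adjusted p under 0.05), and it was tested on simulated data. Intervals are 95%, unadjusted. The number of arrays limits the precision. The filanesib average is the mean of F minus Control and FPD minus PD.

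Named genes are the 3 highest and lowest per comparison (in FPD against Control the 5 highest called and up to 3 lowest called, of which there was 1), called genes, the extremes of each role, and fixed non-members. Others are named as members or after their values were seen. The gene lists and members were chosen with earlier results of these data known. Alternatives were the compared arrays alone, a replicate block, the mean of a gene's rows, genes above the median mean, renewed quantile normalization, an intensity trend, all rows, and leaving out each array.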

Additional observations from a re-analysis of the deposited data

How the results depend on the processing

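The direction of the filanesib average over the 43 genes (median 0.30) held under all 18 alternatives, at 0.26 with the arrays quantile normalized again and 0.28 to 0.31 without single arrays. The number of genes called depended more on the setting. The share of all genes called under each alternative was not computed. The counts below therefore do not tell a change in the 43 genes from a change over all genes. Of 45 calls of single genes, 21 were kept under every alternative and 24 were lost under at least 1. The causes were not tested, beyond the fewer arrays or fewer genes that a setting itself brings.

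Among genes above the median mean, which keeps 41 of the 43, the calls were 1 higher in PD against Control, 2 lower in FPD against Control, 2 higher in FPD against PD and 21 higher in the filanesib average. With the arrays quantile normalized again there were 2 lower in FPD against Control and 7 higher in the average, and the median in PD against Control was 0.006. An intensity trend gave 1 higher in PD against Control, 2 lower in FPD against Control and 5 higher in FPD against PD. Over all rows of the table there were 4 lower in PD against Control, 0 lower in FPD against Control, 1 higher in FPD against PD, 2 higher in FPD against F and 6 higher in the average.

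Without single arrays the genes called higher numbered 3 to 13 in the average, 10 to 15 in FPD against Control, 0 to 1 in FPD against PD, 1 to 3 in FPD against F and 0 to 1 in PD against Control, and those called lower 4 to 6 in PD against Control and 0 to 2 in FPD against Control. Medians ran from 0.20 to 0.29 in F against Control, -0.123 to -0.059 in PD against Control, 0.23 to 0.30 in FPD against Control, 0.29 to 0.35 in FPD against PD, -0.041 to 0.035 in FPD against F and 0.04 to 0.09 in the departure from additivity. Signs turned for CENPH in FPD against PD (-0.032 with renewed quantile normalization, -0.019 to 0.080 without single arrays), for CENPM in the average (-0.001 with renewed quantile normalization), for MKI67 in F against Control (-0.193 to 0.169 without single arrays, and 0.018 without F replicate 2) and for INCENP in F against Control (-0.026 to 0.091 without single arrays), none of them called.

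With the replicate number as a block, 9 genes were called higher in the average, 15 in FPD against Control and 3 in FPD against F, and 8 were called lower in PD against Control. NDC80 and SGO1 lost their call in the average, BUB1 in FPD against Control, PRC1 in FPD against F and SKA2 in PD against Control (limma adjusted p 0.0511 to 0.0680). The numbers were not taken as pairing: 5 of 18 same-numbered pairs of arrays correlated above 0.1 in their deviations from the group means (range -0.26 to 0.16, against -0.20 to 0.23 in pairs with different numbers).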
